A study of Mus musculus with 12 samples.

Results

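Heme breakdown, iron storage and iron transport genes were followed, with myoglobin, through injured and needled mouse calf muscle. The 9 genes, Hmox1, Blvrb, Slc40a1, Tfrc, Fth1, Ftl1, Slc11a1, Slc11a2 and Mb, were taken by name from the 54532 gene IDs counted, and each matched 1 ID in the GENCODE M21 annotation of mouse genome mm10. The mice were C57BL/6, wild type and 6 to 7 months old, and their gastrocnemius, a mostly fast-twitch muscle of the calf, was sampled for RNA. The needling group received acupuncture 24 hours after a bupivacaine injection, and the injury group received bupivacaine alone. The saline group had a saline injection, and for the naive group no injection is named. Each of the 4 groups holds 3 of the 12 libraries. Bupivacaine is a local anaesthetic that kills muscle fibres and spares many of their stem cells. The labels give no collection time, so treatment and any difference in collection time cannot be told apart, and they do not say whether replicates were separate animals, so p-values reflect spread that could be technical.

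Dying fibres and damaged vessels release heme from myoglobin and hemoglobin, and phagocytes that clear the debris take it apart. Heme oxygenase opens the heme ring and frees its iron, and biliverdin reductases reduce the pigment that remains. The iron is stored in ferritin, a shell of heavy and light chains, or leaves the cell through ferroportin. When cells lack iron, iron regulatory proteins bind hairpins in messenger RNA. A hairpin in a 5′ untranslated region then holds back translation, and hairpins in a 3′ untranslated region shield the transcript from decay.

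The hairpins are printed because they mark members with a match to the letters of this known element. The search asks for an unbroken stem, so it cannot show that a member lacks the element. GENCODE M21 transcripts of mm10 were searched on the transcript's strand for an unpaired C, 5 stem bases, the loop CAGTGN and 5 bases that can pair with the first 5, G with T allowed. Matches in untranslated regions were found in Fth1, Ftl1, Slc40a1 and Tfrc. Capitals mark the loop.
Fth1, 5′ untranslated region, chr19:9982738-9982754, plus strand: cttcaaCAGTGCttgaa
Ftl1, 5′ untranslated region, chr7:45459785-45459801, minus strand: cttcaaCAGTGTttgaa
Slc40a1, 5′ untranslated region, chr1:45925471-45925487, minus strand: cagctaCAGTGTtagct
Tfrc, 3′ untranslated region, chr16:32631225-32631241, plus strand: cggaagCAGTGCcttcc
Tfrc, 3′ untranslated region, chr16:32631604-32631620, plus strand: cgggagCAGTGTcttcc
Tfrc, 3′ untranslated region, chr16:32631669-32631685, plus strand: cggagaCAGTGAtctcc
Tfrc, 3′ untranslated region, chr16:32631716-32631732, plus strand: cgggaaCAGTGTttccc
Fth1 and Ftl1 share the same stem, and their loops differ in the last base. A 5′ match was present in 31 of 20916 protein-coding genes with that region (0.148%), and a 3′ match in 129 of 21039 (0.613%). A match describes letters and is not a measured site, and no match in the other members says only that these letters are not in their annotated regions.

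Total counts per library lay between 16385233 and 27155738, and all 9 members passed the filter on low counts. Levels of 1 gene across libraries are given as CPM (counts scaled to a common library total) with trimmed-mean (TMM) scaling, and levels of different genes as the authors' FPKM, which divides by gene length. Naive replicate 1 stood apart with 2056 CPM of the chaperone gene Hspa1a, against 3.05 to 37.8 CPM in the other 11 libraries. Needling replicate 1 and saline replicate 1 were low in slow fibre transcripts, with 549 and 199 CPM summed over 10 markers against 1276 to 2623 CPM in the other 10 libraries. Fast muscle identity was present throughout, since 12 fast fibre markers summed to between 80320 and 216500 CPM.

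The comparisons asked what the injection, the bupivacaine and the needling each changed, and they share groups with each other. Slc11a1, Ftl1, Blvrb and Hmox1 had their highest levels in needling muscle and their next highest mean in injury muscle. Tfrc ran the other way, as did the mean of Slc40a1. Fth1, Slc11a2 and Mb passed in none of the 6 comparisons of the fit to all 12 libraries. A gene passed at an adjusted p under 0.05 in edgeR's quasi-likelihood test, with Benjamini-Hochberg adjustment over all 15715 genes tested. Between needling and saline muscle 5 of the 9 members passed, 4 higher and 1 lower, against 29.6% of all genes (18.6% higher and 11.0% lower); the libraries of these groups did not overlap for 5 members and for 48.3% of all genes. Between needling and naive muscle 6 passed, 4 higher and 2 lower, against 42.2% of all genes (23.2% higher and 19.0% lower), with no overlap for 7 members and 51.2% of all genes. Injury against naive muscle gave 4, 3 higher and 1 lower, against 17.8% of all genes (12.3% higher and 5.54% lower), with no overlap for 7 members and 34.3% of all genes. Injury against saline muscle gave 2, both higher, against 4.26% of all genes (4.19% higher and 0.07% lower), with no overlap for 4 members and 23.9% of all genes. The split into higher and lower depends on the scaling: with library totals in place of TMM, 4645 genes were higher and 188 lower between needling and saline muscle, against 2916 and 1732 with TMM, 7365 and 327 between needling and naive muscle, against 3641 and 2986, and 4200 and 16 between injury and naive muscle, against 1926 and 870. The 4, 4, 3 and 2 members higher in needling against saline, needling against naive, injury against naive and injury against saline muscle passed in the same numbers under both scalings. Of the lower members, 0, 1 and 0 passed under library totals in the first 3 of these comparisons.

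**Figure D1:**
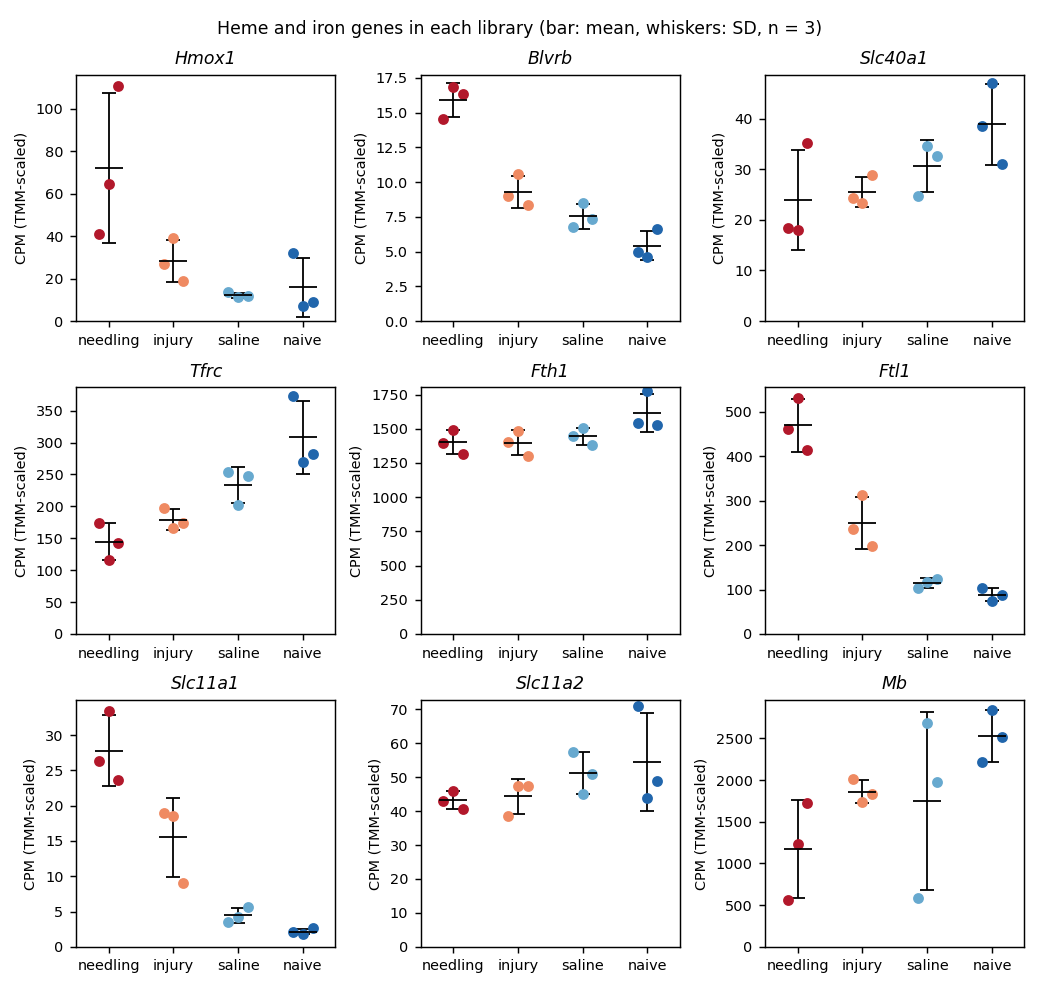
TMM-scaled CPM (linear axis from 0) of the 9 members in needling, injury, saline and naive muscle from left to right. Points are libraries, the bar is the mean and whiskers are the SD of 3 libraries; all needling points of Ftl1, Slc11a1, Blvrb and Hmox1 lie above the other libraries, while Fth1 stays between 1303 and 1778 CPM.

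Hmox1 encodes heme oxygenase 1, the inducible enzyme that opens heme (ENSMUSG00000005413, chromosome 8, 75093621 to 75100589). Needling libraries 1 to 3 held 41.1, 64.8 and 111 CPM, injury libraries 27.1, 39.0 and 19.1 CPM, saline libraries 13.6, 11.2 and 11.7 CPM, and naive libraries 31.9, 7.20 and 8.78 CPM. All needling libraries lay above the other 9, and naive replicate 1 was the highest uninjured library. Hmox1 rose in needling against saline muscle by 2.57 ± 0.60 on the log2 scale (SE; edgeR adjusted p = 0.0119). Against naive muscle it rose by 2.18 ± 0.59 (SE; edgeR adjusted p = 0.0144), a call that was lost when these groups were fitted alone. In bulk muscle, more cells of a type and more RNA per cell cannot be told apart. The log2 difference between injury and saline muscle was 1.22 ± 0.58 (SE; edgeR adjusted p = 0.3525), although these libraries did not overlap, and fitted alone these groups passed. Between injury and naive muscle it was 0.84 ± 0.57 (SE) and did not pass, but without naive replicate 1 it was 1.88 and passed. That library also held 641 CPM of Srxn1, an oxidative stress gene, against 31.8 to 66.3 CPM in the other 11. The part of its stress transcripts in its Hmox1 level was not tested.

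Blvrb encodes a biliverdin reductase that also reduces flavins (ENSMUSG00000040466, chromosome 7, 27447978 to 27466144). It measured 14.5, 16.8 and 16.3 CPM in needling libraries, 9.01, 10.6 and 8.34 CPM in injury libraries, 6.74, 8.48 and 7.37 CPM in saline libraries and 5.001, 4.64 and 6.63 CPM in naive libraries. No other library reached the needling range, while injury and saline libraries overlapped. Blvrb rose 2.11-fold in needling against saline muscle (log2 difference 1.08 ± 0.16 SE; edgeR adjusted p = 0.000354) and 2.92-fold in needling against naive muscle (1.55 ± 0.16 SE; edgeR adjusted p = 1.54e-05). It rose by 0.78 ± 0.16 on the log2 scale in injury against naive muscle (SE; edgeR adjusted p = 0.00589).

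Among the other genes of heme breakdown, Blvra, the main biliverdin reductase gene, averaged 17.7 ± 2.7 CPM in needling and 10.9 ± 0.85 CPM in saline muscle (SD, n = 3 each) and rose by 0.71 ± 0.13 on the log2 scale (SE; edgeR adjusted p = 0.00135). Hmox2, the constitutive heme oxygenase gene, averaged 32.2 ± 1.5 CPM in needling and 32.5 ± 1.5 CPM in saline muscle and did not pass.

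Ftl1 encodes the ferritin light chain, which helps the iron core to form (ENSMUSG00000050708, chromosome 7, 45457944 to 45459884). Needling libraries held 462, 532 and 415 CPM, injury libraries 235, 313 and 199 CPM, saline libraries 102, 117 and 124 CPM, and naive libraries 104, 74.7 and 87.0 CPM. Every needling library exceeded every injury library, and every injury library exceeded all uninjured ones. Ftl1 rose 4.11-fold in needling against saline muscle (log2 difference 2.04 ± 0.18 SE; edgeR adjusted p = 7.83e-05) and 5.31-fold in needling against naive muscle (2.41 ± 0.18 SE; edgeR adjusted p = 3.38e-06). Injury muscle was 2.18-fold above saline muscle (1.12 ± 0.17 SE; edgeR adjusted p = 0.0107) and 2.82-fold above naive muscle (1.49 ± 0.18 SE; edgeR adjusted p = 0.000296). Without injury replicate 1 the difference from saline was 1.16 and no longer passed, and no gene of the whole table did. Its near copy Ftl1-ps1 held 1.65 to 11.2 CPM, and how reads shared by them were counted is not given.

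Fth1 encodes the heavy chain with the ferroxidase centre (ENSMUSG00000024661, chromosome 19, 9980598 to 9985098). It measured 1392, 1494 and 1318 CPM in needling libraries, 1403, 1487 and 1303 CPM in injury libraries, 1449, 1503 and 1380 CPM in saline libraries and 1540, 1778 and 1530 CPM in naive libraries. Needling, injury and saline libraries covered the same range, and naive libraries lay slightly above it. The log2 difference of needling from saline muscle was -0.04 ± 0.13 (SE; edgeR adjusted p = 0.821) and that from naive muscle -0.21 ± 0.13 (SE; edgeR adjusted p = 0.207). Scaled by library totals these were 0.26 and 0.29, neither passing, while the same change of scale moved the median of all genes by 0.30 and 0.49.

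The ratio of the light to the heavy chain transcript does not depend on library scaling, and it is described here with no test. Ftl1 FPKM divided by Fth1 FPKM averaged 0.216 ± 0.014 in needling, 0.114 ± 0.019 in injury, 0.0513 ± 0.0063 in saline and 0.0358 ± 0.0082 in naive muscle (SD, n = 3 each). The needling libraries lay between 0.203 and 0.230 and the injury libraries between 0.0987 and 0.136, and every one was above the highest uninjured value of 0.0581. The remaining storage genes did not pass with TMM scaling in any comparison. Among them Pcbp1, an iron chaperone gene that delivers iron to ferritin, averaged 188 ± 12 CPM in needling and 183 ± 5.5 CPM in saline muscle (SD, n = 3 each), and the related Pcbp2 averaged 81.2 ± 7.8 and 78.4 ± 2.2 CPM in needling and saline muscle.

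**Figure D2:**
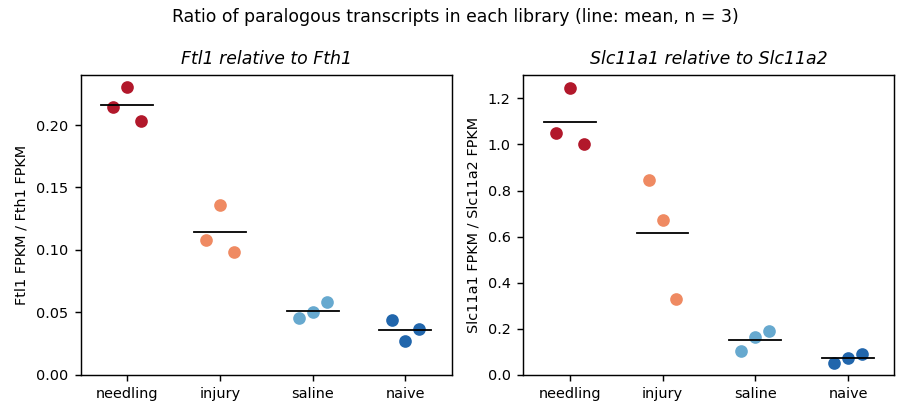
Ratio of FPKM values (linear axes from 0) of Ftl1 to Fth1 and of Slc11a1 to Slc11a2 in needling, injury, saline and naive muscle. Points are libraries and lines are means of 3; the needling means are 0.216 and 1.10, against 0.0358 and 0.0706 in naive muscle.

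Slc11a1 encodes NRAMP1, a metal transporter of the phagosome membrane in macrophages (ENSMUSG00000026177, chromosome 1, 74375195 to 74386062). Its levels were 26.4, 33.4 and 23.7 CPM in needling libraries, 19.0, 18.6 and 9.04 CPM in injury libraries, 3.53, 4.27 and 5.62 CPM in saline libraries and 2.06, 1.81 and 2.60 CPM in naive libraries. The 4 groups did not overlap. The rise in needling muscle was 6.19-fold against saline (log2 difference 2.63 ± 0.28 SE; edgeR adjusted p = 9.82e-05) and 12.8-fold against naive muscle (3.68 ± 0.30 SE; edgeR adjusted p = 6.22e-06). Injury muscle was 3.45-fold above saline muscle (1.79 ± 0.28 SE; edgeR adjusted p = 0.0107) and 7.16-fold above naive muscle (2.84 ± 0.30 SE; edgeR adjusted p = 0.000209). Without injury replicate 1 the difference between injury and saline muscle was 1.62 and no longer passed.

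Slc11a2 encodes DMT1, the transporter that moves ferrous iron out of endosomes and across the gut wall (ENSMUSG00000023030, chromosome 15, 100387898 to 100425072). It measured 43.1, 46.0 and 40.6 CPM in needling libraries, 38.5, 47.5 and 47.4 CPM in injury libraries, 57.5, 45.2 and 51.0 CPM in saline libraries and 71.1, 43.8 and 48.9 CPM in naive libraries. The groups overlapped, with naive replicate 1 highest. The log2 difference of needling from saline muscle was -0.25 ± 0.16 (SE; edgeR adjusted p = 0.274), and scaled by library totals it was 0.06. In FPKM the ratio of Slc11a1 to Slc11a2 averaged 1.10 ± 0.13 in needling, 0.615 ± 0.26 in injury, 0.152 ± 0.043 in saline and 0.0706 ± 0.021 in naive muscle (SD, n = 3 each). All needling libraries were at or above 1.001, and the highest uninjured library was at 0.189.

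Tfrc encodes the transferrin receptor, through which cells take up iron-loaded transferrin, and its transcript holds the 4 hairpins shown above (ENSMUSG00000022797, chromosome 16, 32608920 to 32632794). It measured 174, 116 and 143 CPM in needling libraries, 197, 165 and 174 CPM in injury libraries, 253, 202 and 247 CPM in saline libraries and 374, 269 and 282 CPM in naive libraries. All bupivacaine libraries were below all uninjured libraries, while needling and injury libraries overlapped. Tfrc fell in needling against saline muscle, at -0.70 ± 0.17 on the log2 scale (SE; edgeR adjusted p = 0.00852), and against naive muscle, with -1.09 ± 0.17 (SE; edgeR adjusted p = 0.000252). It also fell in injury against naive muscle, with -0.79 ± 0.17 (SE; edgeR adjusted p = 0.00664). Scaled by library totals, the log2 difference of needling from saline muscle was -0.40 and that of injury from naive muscle -0.44, and neither passed. Of 12 fast fibre markers 6 fell in needling against saline muscle and 9 in needling against naive muscle, or 2 and 4 under library totals. Their sums were 80320 to 123500 CPM in needling, 114500 to 152700 CPM in injury, 156100 to 179500 CPM in saline and 166000 to 216500 CPM in naive libraries. Their part in the Tfrc difference was not tested.

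Slc40a1 encodes ferroportin, the exporter of iron from cells (ENSMUSG00000025993, chromosome 1, 45908068 to 45926523). Needling libraries held 18.5, 18.0 and 35.3 CPM, injury libraries 24.3, 23.3 and 28.9 CPM, saline libraries 24.8, 34.6 and 32.7 CPM, and naive libraries 38.6, 47.1 and 31.0 CPM. Needling replicate 3 was the highest of the bupivacaine libraries and lay within the naive range. Slc40a1 fell in needling against naive muscle, at -0.70 ± 0.25 on the log2 scale (SE; edgeR adjusted p = 0.0391), and this call held in 10 of 17 alternatives. It was lost without needling replicate 1 or 2 and without naive replicate 1 or 2, where the log2 difference was between -0.69 and -0.54, and with no filter or with these groups alone. Under library totals it was -0.23 and did not pass. The log2 difference of needling from saline muscle was -0.36 ± 0.25 (SE; edgeR adjusted p = 0.293), and without needling replicate 3 it was -0.75 and passed.

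Mb encodes myoglobin, the heme protein that stores oxygen in oxidative fibres (ENSMUSG00000018893, chromosome 15, 77015487 to 77050670). It measured 564, 1233 and 1724 CPM in needling libraries, 2014, 1739 and 1836 CPM in injury libraries, 581, 2685 and 1982 CPM in saline libraries and 2220.5, 2844 and 2522 CPM in naive libraries. Its lowest values were in needling replicate 1 and saline replicate 1, the libraries low in slow fibre markers, whose part in the Mb values was not tested. The log2 difference of needling from naive muscle was -1.11 ± 0.49 (SE; edgeR adjusted p = 0.0945), and it passed in 4 of 17 alternatives, where the adjusted p over all 17 ran between 0.0408 and 0.317. The injury and saline means differed by 0.09 ± 0.49 on the log2 scale (SE; edgeR adjusted p = 0.955), and without saline replicate 1 the sign turned, with -0.29. Mb overlaps Apol6 on the opposite strand, and Apol6 was lowest in the same libraries, with 21.3 CPM in needling replicate 1 and 22.2 CPM in saline replicate 1. Whether the counting used strand is not given in the sources used here, so the 2 genes may share reads.

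**Figure D3:**
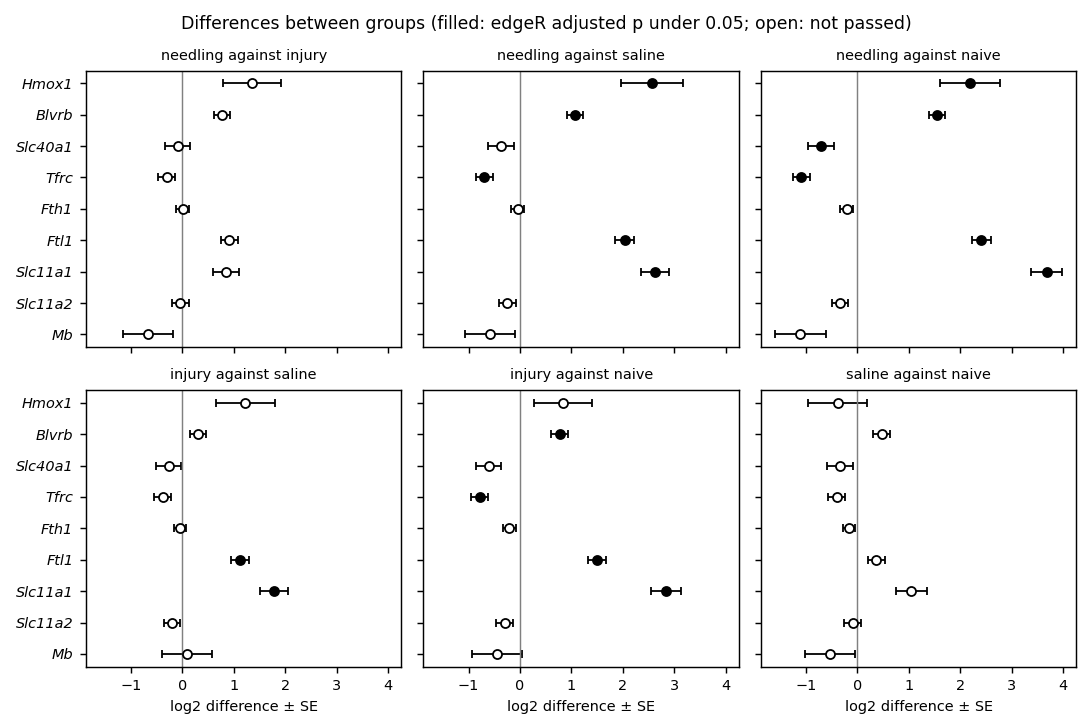
Log2 difference (x axis) with its SE for each member in the 6 comparisons, first named group minus second. Filled points have an edgeR adjusted p under 0.05; no point is filled for needling against injury or for saline against naive muscle.

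Needling against injury muscle is the comparison closest to the needling itself. No member passed in the fit to 12 libraries, and 0.0% of all genes did. At an unadjusted p under 0.05 there were 4 members, Ftl1, Blvrb, Slc11a1 and Hmox1, and 2606 genes in all (16.6%). DESeq2 called 2 members and 543 genes, and limma-voom with a quality weight for each library called 3 members and 911 genes. On log2(FPKM + 1) limma called 2 members and 161 genes, and on log2(FPKM + 0.1) it called 0 members and 0 genes. The log2 difference was 0.92 ± 0.17 for Ftl1, 0.77 ± 0.15 for Blvrb, 0.84 ± 0.26 for Slc11a1 and 1.35 ± 0.56 for Hmox1 (SE), with edgeR adjusted p = 0.0975, 0.0975, 0.132 and 0.276 in that order. These groups did not overlap for 5 members, against 22.8% of all genes, the fifth being Mb.

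Injury and needling libraries with the same replicate number deviated together, with correlations of 0.238, 0.485 and 0.422. The labels do not say that these numbers pair samples. The pairing was read from the same values that the blocked fits below test, so their calls are not independent of it. Same-numbered needling and saline libraries correlated by 0.216, 0.176 and 0.0413, and injury and saline libraries by -0.128, 0.0707 and -0.0756. Differently numbered libraries reached 0.257 (injury 2 with naive 1) and 0.229 (injury 3 with naive 2), so 0.238 by itself does not mark a pair. Differently numbered needling and injury libraries correlated by -0.365 to -0.0301. By pair, needling minus injury, Ftl1 differed by 0.98, 0.76 and 1.06 on the log2 scale. Blvrb differed by 0.69, 0.67 and 0.97, and Slc11a1 by 0.47, 0.85 and 1.39. Each of the 3 was higher in the needling library of every pair. Hmox1 was higher too, by 0.60, 0.73 and 2.54, the last pair standing well above the others. For these 4 genes every needling library lay above every injury library. Any pairing would therefore give the same direction, so the agreement by pair adds nothing to that. With replicate as a block in the 6 injury and needling libraries, 4 members passed against 19.6% of all genes tested. They were Ftl1 (log2 difference 0.90 ± 0.096), Blvrb (0.74 ± 0.11) and Slc11a1 (0.86 ± 0.18), all higher, and Tfrc (-0.35 ± 0.088), which was lower (SE). With the block set only for injury and needling libraries inside the fit of 12, 3 members passed, against 2.36% of all genes. They were Ftl1, Blvrb and Slc11a1. With a replicate block over all 12 libraries, 0 members and 0 genes passed.

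Saline against naive muscle gave 0 calls among the members and 0.0% of all genes in edgeR's test. At an unadjusted p under 0.05 there were 3 members and 1863 genes in all (11.9%), and DESeq2 called 0 members and 157 genes. The 3 members were Slc11a1, with a log2 difference of 1.05 ± 0.31, Blvrb, with 0.47 ± 0.17, and Tfrc, with -0.40 ± 0.17 (SE). Non-overlap between saline and naive libraries was seen in 4 members, against 16.5% of all genes.

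Markers of several cell types also differed between the groups, in different directions. The 12 macrophage markers, among them Adgre1, Cd68, Csf1r and Lyz2, summed to 2045 to 2847 CPM in needling, 869 to 1413 CPM in injury, 213 to 508 CPM in saline and 105 to 211 CPM in naive libraries, and none was at 0 in any group. All 12 rose in needling against saline muscle, with a median log2 difference of 2.77. In injury against saline muscle 5 of 12 rose, or 6 under library totals. Over the comparison of needling with saline muscle, Slc11a1 differed by 2.63, Hmox1 by 2.57, Ftl1 by 2.04 and Blvrb by 1.08 on the log2 scale. The 10 cell division genes also rose together, with 134 to 186 CPM in needling and 3.53 to 19.9 CPM in saline libraries. The 8 neutrophil markers summed to 8.53 to 11.7 CPM in needling, 2.71 to 6.51 CPM in injury, 0.834 to 1.52 CPM in saline and 0.373 to 9.88 CPM in naive libraries, and Ly6g was at 0 in needling, injury and saline libraries. Of the 4 neutrophil markers tested, 2 rose in needling against saline muscle, with a median log2 difference of 2.61. Of 7 myogenic markers 4 rose in that comparison, or 5 under library totals. The 7 summed to 228 to 333 CPM in needling and 48.7 to 84.8 CPM in saline libraries. Of 7 fibroblast markers 2 rose, Col1a1 and Col3a1, or 3 with Pdgfra under library totals. The 7 summed to 2390 to 3165 CPM in needling and 1116 to 1405 CPM in saline libraries. Of 7 endothelial markers 4 fell, or none under library totals, with sums of 150 to 179 CPM in needling and 195 to 243 CPM in saline libraries. The 6 erythroid markers gave 43.4 to 124 CPM in needling, 68.7 to 451 CPM in injury, 69.7 to 155 CPM in saline and 72.0 to 535 CPM in naive libraries, and none of the 5 tested passed in any of the 6 comparisons. The part of these cell types in the members' differences was not tested.

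**Figure D4:**
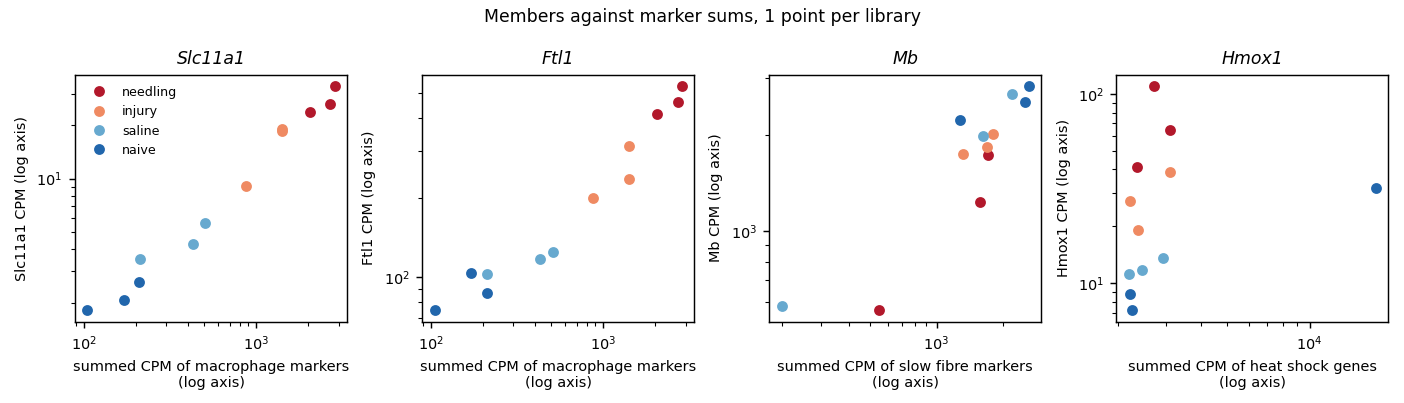
CPM of Slc11a1, Ftl1, Mb and Hmox1 against the summed CPM of macrophage markers (first and second panel), slow fibre markers and heat shock genes, 1 point per library, both axes log. Slc11a1 and Ftl1 are highest where macrophage markers are highest, Mb is lowest in the libraries with the lowest slow fibre sums, and naive replicate 1 lies alone at 17490 CPM of heat shock transcripts.

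Levels per length show how the members' order shifted. In needling muscle the mean FPKM was 1616 for Fth1, 785 for Mb, 350 for Ftl1, 41.1 for Hmox1, 23.3 for Tfrc, 7.50 for Slc11a1, 6.79 for Slc11a2, 5.70 for Blvrb and 2.65 for Slc40a1. In naive muscle it was 1861 for Fth1, 1690 for Mb, 65.8 for Ftl1, 49.7 for Tfrc, 9.11 for Hmox1, 8.57 for Slc11a2, 4.32 for Slc40a1, 1.94 for Blvrb and 0.580 for Slc11a1. Slc11a1 was thus last of the 9 in naive muscle and above its paralog in the needling mean, and Hmox1 stood above Tfrc in needling muscle and below it in naive muscle.

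Other genes of heme and iron metabolism numbered 86, of which 78 were tested. Between needling and saline muscle 11 rose and 11 fell, 28.2% against 29.6% of all genes, so their share was near the background. Under library totals 18 rose and 1 fell. Their median log2 difference was -0.08, against -0.04 over all genes. Among 10 tested genes of heme and hemoglobin transport 4 rose and none fell, or 5 and none under library totals. The 4 were Lrp1, the receptor for heme bound to hemopexin, by 1.20 ± 0.19, Slc46a1, a heme and folate transporter gene, by 1.05 ± 0.33, Cd163, the macrophage receptor for hemoglobin bound to haptoglobin, by 0.69 ± 0.20, and Pgrmc1, a heme-binding membrane protein gene, by 0.63 ± 0.17 on the log2 scale (SE). Of 8 tested iron uptake genes 3 rose, or 4 with Slc39a8 under library totals. Steap2, a metalloreductase gene, averaged 4.97 ± 0.56 CPM in needling and 1.24 ± 0.29 CPM in saline muscle, and Lcn2, which binds iron-carrying siderophores, 5.69 ± 2.5 and 1.76 ± 1.5 CPM in needling and saline muscle (SD, n = 3 each). Steap1, a relative of Steap2, averaged 1.72 CPM in needling and 0.157 CPM in saline muscle, where it had 9 counts in all.

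With TMM scaling, lower genes lay mainly in the mitochondrial and regulatory lists. Of 15 tested genes of mitochondrial iron and iron-sulfur clusters, 6 fell and none rose in needling against saline muscle, with a median log2 difference of -0.31, while under library totals 1 fell, Isca1, and 1 rose, with a median of -0.02. The log2 difference was -0.64 ± 0.16 for Isca1, an iron-sulfur assembly gene, and -0.43 ± 0.12 for Abcb8, a mitochondrial transporter gene (SE). In heme synthesis Alas1, its first and rate-limiting enzyme in most tissues, averaged 107 ± 7.8 CPM in needling and 151 ± 22 CPM in saline muscle (SD, n = 3 each) and was the 1 gene of 9 that fell, a call lost under library totals. Against naive muscle 5 of those 9 fell with TMM scaling, and none with library totals, where 2 of the 8 outside the erythroid list rose. The 5 were led by Alas1, with a log2 difference of -0.71, and Fech, the enzyme that inserts iron, with -0.70. Between needling and saline muscle 3 of 11 tested regulators fell and 1 rose, while under library totals none fell and 3 rose. Hfe2 (hemojuvelin, a BMP co-receptor made in muscle and liver) differed by -0.60 ± 0.15, Bmp6, the ligand that raises hepcidin, by -0.52 ± 0.17, and Keap1, the inhibitor of NRF2, by -0.31 ± 0.097 (SE). Spic, a factor of iron-recycling macrophages, averaged 0.803 CPM in needling and 0.0963 CPM in saline muscle, from 5 counts in the saline libraries. Of 12 tested NRF2 and oxidative stress genes in needling against saline muscle, G6pdx (1.54 ± 0.24) and Gsr (0.33 ± 0.11) rose and Me1 (-0.64 ± 0.20; SE) fell, the last of these not under library totals. None of 3 storage genes, 3 export genes or 5 globin genes beside the members passed between needling and saline muscle, except Pcbp2, which rose by 0.34 under library totals. Against naive muscle 1 export gene, the ferroxidase gene Heph, and 1 globin gene, Cygb, were higher in needling muscle, by 1.26 ± 0.42 and 0.62 ± 0.22 on the log2 scale (SE). Heph averaged 1.23 CPM in needling, 0.963 CPM in injury, 1.48 CPM in saline and 0.503 CPM in naive muscle. Its mean was thus highest in saline muscle, and the naive libraries held 28 counts in all.

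**Figure D5:**
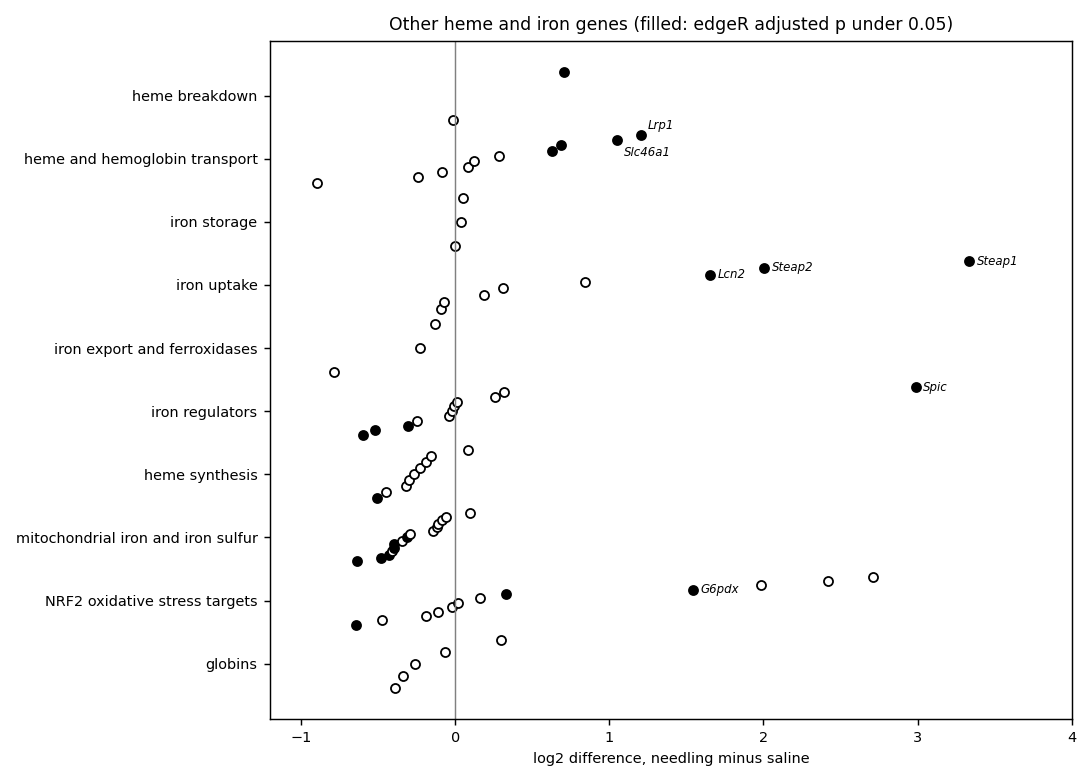
Log2 difference, needling minus saline, of the 78 tested heme and iron genes that are not members, by list. Filled points have an edgeR adjusted p under 0.05, and names are given for filled points beyond 1 in size; no storage or export gene is filled, and 6 of 15 mitochondrial genes are filled below 0, of which 1 passed under library totals.

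Genes whose log2 CPM followed each member most closely over the 12 libraries differed between members, and these correlations carry the shared group structure and library scale. Ftl1 was most like Emp3 (r = 0.995), Actb (0.995) and Cfl1 (0.994). Slc11a1 was most like Tcirg1 (0.997), Myof (0.996) and Kcnk13 (0.996). Blvrb was closest to Ugdh (0.986), Lyl1 (0.985) and Selenon (0.983), and Hmox1 to Itga5 (0.965), Ahnak (0.965) and Ninj1 (0.955). Mb was closest to Acaa2 (0.99), Ldhb (0.988) and Smtnl1 (0.979). Tfrc followed Cdc37l1 (0.958), Rabggtb (0.953) and Cystm1 (0.951), and Slc40a1 followed Afg3l2 (0.962), Fgfrl1 (0.946) and Mfn1 (0.942). Slc11a2 was nearest to Dusp27 (0.961), Popdc2 (0.955) and Nudt18 (0.954), and Fth1 to Tpt1 (0.918), Coa6 (0.904) and Vti1b (0.897).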

How the data were processed

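Total RNA of 12 gastrocnemius samples was made into libraries with a NEBNext kit and sequenced, per the labels' protocols. The reads were aligned with HISAT2 2.0.5 to mm10, per the submitters' processing notes; the counter, its annotation, its use of strand and any filter are not given in the sources used here. Raw counts and FPKM per gene were deposited by the authors. The FPKM scale of each library equals that of median-ratio size factors. Symbols were matched through GENCODE M21. Counts were tested with edgeR 4.0.16 (glmQLFit and glmQLFTest, robust, TMM scaling, filterByExpr by group) in 1 fit of 12 libraries with a mean per group, in R 4.3.3, two-sided, with Benjamini-Hochberg adjustment over 15715 genes. The SE is the log2 difference divided by the square root of F. The fit was also run on simulated counts with known changes. These had the same dispersion for all genes and no outlying library, unlike the measured counts, so they do not show how the fit behaves here. Alternatives were DESeq2 1.42.0, limma 3.58.1 (voom, log2(FPKM + 1) and log2(FPKM + 0.1)), other scaling and filters, the replicate block, and leaving out each library. Voom was run with a quality weight for each library, and limma-voom in the text means that fit. Same-numbered injury and needling libraries correlated in their deviations from the group means by 0.238, 0.485 and 0.422, from the replicate numbers in the labels. Members and lists were chosen with earlier results of these data known. From each list up to 4 called genes with the smallest adjusted p are named, or up to 2 with the highest CPM where none was called, and for each member the 3 genes of highest correlation. Some genes that this rule names are not reported here.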

Additional observations from a re-analysis of the deposited data

How the results depend on the processing

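Of 936 member values under alternatives, 871 kept their direction and side of the threshold, 28 changed sign, 25 newly passed and 12 no longer passed. Genes called between saline and naive muscle were 0 in the fit to 12 libraries, 157 with DESeq2, 3 with no filter and 0 to 25 with a library left out. Injury against saline muscle gave 669 genes, 1053 with DESeq2, 1107 with limma-voom and 0 to 1098 with a library left out, and 0 to 2 members. Needling against injury muscle gave 0 genes, 543 with DESeq2, 49 with no filter, 161 on log2(FPKM + 1), 911 with limma-voom and 0 to 1 with a library left out. This comparison also gave 0 genes on log2(FPKM + 0.1), with median-ratio size factors, library totals or estimated dispersions. The stricter filter and those groups alone gave 0 too. The replicate block gave 3041 genes in the 6 libraries, 371 when set only for those libraries in the fit of 12, and 0 over all 12. Members called in needling against injury muscle were 2 with DESeq2, 1 with no filter, 2 on log2(FPKM + 1), 3 with limma-voom, and 4, 3 and 0 with these blocks. The other alternatives, log2(FPKM + 0.1) among them, called 0 members. For Ftl1 the adjusted p was 0.000454 with the block in 6 libraries, and 0.000454 to 0.529 over all alternatives. Needling against saline muscle gave 2544 to 4718 genes with a library left out, the fewest without needling replicate 2, against 4648. Injury against naive muscle gave 2796 genes, 4216 under library totals, 1765 with those groups alone and 1356 to 2554 with a library left out. Library totals and edgeR with estimated dispersions were alternatives chosen after seeing the data.

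Signs turned mostly near 0. Under library totals Fth1 became 0.0304 in saline against naive, 0.115 in injury against saline, 0.261 in needling against saline, 0.145 in injury against naive and 0.292 in needling against naive muscle. Slc11a2 became 0.0971 in saline against naive, 0.105 in needling against injury, 0.0594 in needling against saline, 0.0510 in injury against naive and 0.156 in needling against naive muscle, and Slc40a1 0.0269 (needling against injury). That scaling moved the median of all genes by 0.143 to 0.488. Fth1 between needling and injury muscle was -0.00152 with no filter, -0.0306 with a stricter filter, -0.0274 with those groups alone, -0.0132 with limma-voom and -0.0259 with the replicate block. Hmox1 between saline and naive muscle was 0.11 with limma-voom. With a library left out, the ranges that cross 0 were -0.73 to 0.62 for Hmox1 and -0.22 to 0.16 for Slc11a2 (saline against naive), -0.484 to 0.0726 for Slc40a1, -0.0821 to 0.0506 for Fth1 and -0.134 to 0.00999 for Slc11a2 (needling against injury), and -0.0943 to 0.0373 for Fth1 and -0.29 to 0.57 for Mb (injury against saline). The cause was not tested. Groups of 3 limit all of these tests.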
